A study of Mus musculus with 12 samples.

Results

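Receptors for the constant part of antibodies and the paired immunoglobulin-like receptors set how strongly a myeloid cell answers immune complexes and other ligands. Fcgr1, Fcgr3 and Fcgr4 encode activating IgG receptors that need the common gamma chain, encoded by Fcer1g, while Fcgr2b encodes the inhibitory IgG receptor. Lilrb4a (gp49B), Pirb and Pilra encode inhibitory receptors whose cytoplasmic motifs recruit phosphatases, and Pilrb1 encodes the activating partner of Pilra. In the brain these receptors are carried mainly by microglia and other macrophages. Their 9 genes were followed here in the ATAC-seq maps of engrafted brain macrophages and host microglia. All merged peaks whose nearest start site belonged to one of the 9 genes were taken, which gave 48 of 60288 peaks in untreated mice and 49 of 54953 peaks in LPS-challenged mice.

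The mice were WT C57BL/6J bone marrow chimeras, irradiated with 950 cGy as young mice and reconstituted with WT marrow carrying the CD45.1 allele. Brains were taken 9 months later by the study's account (the labels give 3.5 or 9 months for every sample) from 3 untreated mice and from 3 other mice that had received 2.5 mg/kg LPS, a bacterial endotoxin, 12 h before. From every brain 30000 to 50000 CD45.1 cells (graft) and CD45.2 cells (host microglia) were sorted, so each of the 4 groups, CD45.1 untreated, CD45.2 untreated, CD45.1 LPS and CD45.2 LPS, holds 3 libraries. Host microglia had been irradiated in place and engrafted cells had not, so origin and irradiation cannot be told apart. The study's gate was CD11b+, CD45 low and negative for Ly6C/G. In sorted bulk cells, more accessible cells and more accessibility per cell cannot be told apart either.

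Libraries from untreated mice held 8392877.5 to 9107770 tags and those from LPS-challenged mice 2966364 to 6556594.5, and CD45.2 of untreated mouse 4 had the fewest tags in merged peaks among untreated libraries, 1680263.5. All 8 microglia marker genes had peaks, and in untreated mice their summed level was 1732 to 2506 normalized tags for engrafted cells and 3236 to 3480 for host microglia. After LPS it was 759 to 853 and 959 to 1144. All 9 macrophage markers had peaks, with sums of 2856 to 2896 and 2751 to 2995 untreated and 905 to 1172 and 990 to 1228 after LPS. Each treatment was normalized separately, so levels are not compared between treatments. Of 10 T and NK cell markers, 6 had peaks in untreated mice, with sums of 888 to 989.8 for engrafted cells and 1022 to 1319 for host microglia, and 7 had peaks after LPS (542 to 625 and 575 to 786), but Cd3e, Cd3g and Cd8a had none in either table. Of 8 B cell markers, 5 had peaks in both tables, with sums of 254.5 to 302 and 283 to 295 untreated and 82.1 to 98.3 and 74.0 to 111 after LPS, and Cd79a and Pax5 had none. Of 10 neutrophil markers, 5 had peaks in untreated mice (S100a8, Ly6g, Mpo, Camp and Cxcr2 had none), with sums of 163 to 190 for engrafted cells and 87.5 to 117 for host microglia. After LPS, 9 of the 10 neutrophil markers had peaks, all but Mpo, with sums of 118 to 152 and 77.5 to 146. Of 6 neuronal markers, 4 had peaks in untreated mice (Neurod6 and Gad1 had none), and their sums of 80.3 to 89.9 in CD45.1 lay below 219 to 245 in CD45.2. After LPS, 5 of the 6 had peaks, with 30.5 to 36.0 and 81.3 to 118. Untreated sums were 963 to 1001 and 997 to 1020 for 4 of 6 oligodendrocyte markers (Olig2 and Sox10 had no peak), 367 to 456 and 425 to 527 for all 5 astrocyte markers and 327 to 382 and 468 to 549 for 4 of 5 endothelial markers (Tek had none). After LPS they were 422 to 461 and 413 to 462 for 3 of 6 oligodendrocyte markers, 327 to 411 and 311 to 374 for the astrocyte markers and 291 to 342 and 351 to 369 for the endothelial markers. The part of these cells in the results below was not tested.

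Peaks were spread unevenly over the family. In the untreated and LPS tables respectively, Fcgr4 had 10 and 10 peaks, Fcgr1 8 and 7, Lilrb4a 7 and 8, Fcgr3 6 and 6, Fcgr2b 6 and 7, Fcer1g 4 and 3, Pilra 4 and 5, Pirb 2 and 2 and Pilrb1 1 and 1. On build mm9, Fcgr2b, Fcgr4, Fcgr3 and Fcer1g lie together on chromosome 1, between 172890689 and 173164496. These 4 genes lie 32.8 to 33.1 Mb from Ptprc, the gene of the CD45 antigen, whose allele differs between graft and host by design. Whether the alleles differ as far as the receptor genes was not tested. Fcgr1 lies on chromosome 3, Pilra and Pilrb1 on chromosome 5, Pirb on chromosome 7 and Lilrb4a on chromosome 10. GENCODE vM1 lists Lilrb4a as Lilrb4 and Pirb as Lilrb3. Pilra was the member with no peak at its start site in either table. An LPS peak assigned to Pilra at 18.6 kb lies within an intron of another transcript, so the assigned gene is the nearest start site only.

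The sequences below are examples, not all, of the member peaks that passed between the populations or after LPS in both of them, or, in the case of the Lilr4b line, to the start of the neighbouring paralog Lilr4b. They were read from the mm9 genome, 5′ to 3′ in the direction of the gene. Capitals mark matches to PU.1 (AGGAAGT), AP-1 (TGANTCA), CEBP (TTGCNNAA) or STAT (TTCNNNGAA) letters on either strand.
Lilrb4a promoter, chr10:51210601-51210703, plus strand, up to the start site: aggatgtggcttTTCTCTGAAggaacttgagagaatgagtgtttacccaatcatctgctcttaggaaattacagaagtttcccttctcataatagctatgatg
Lilr4b promoter, chr10:51200307-51200411, plus strand: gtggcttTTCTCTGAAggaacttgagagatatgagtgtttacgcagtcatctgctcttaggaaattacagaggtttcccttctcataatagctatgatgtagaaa
Lilrb4a 29.3 kb downstream, chr10:51239924-51240073, plus strand: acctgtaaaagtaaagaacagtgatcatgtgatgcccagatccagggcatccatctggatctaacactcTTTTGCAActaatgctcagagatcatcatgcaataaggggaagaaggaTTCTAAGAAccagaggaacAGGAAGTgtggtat
Lilrb4a 40.1 kb downstream, chr10:51250736-51250874, plus strand: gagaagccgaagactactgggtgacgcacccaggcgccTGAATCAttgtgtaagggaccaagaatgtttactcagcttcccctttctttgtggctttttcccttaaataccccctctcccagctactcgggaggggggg
Fcgr2b 22.7 kb downstream, chr1:172883429-172883567, minus strand: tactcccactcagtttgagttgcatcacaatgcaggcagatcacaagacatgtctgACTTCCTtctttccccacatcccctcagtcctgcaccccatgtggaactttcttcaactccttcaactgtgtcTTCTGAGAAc
Fcgr4 0.949 kb upstream, chr1:172948028-172948189, plus strand: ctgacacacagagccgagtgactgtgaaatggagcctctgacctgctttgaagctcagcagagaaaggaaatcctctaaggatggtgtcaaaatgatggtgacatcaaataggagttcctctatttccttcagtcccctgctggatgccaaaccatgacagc
The STAT letters stood in both the Lilrb4a and the Lilr4b promoter. They also stood in the Lilrb4a peak at 29.3 kb, which held PU.1 and CEBP letters too, and in the Fcgr2b peak at 22.7 kb, which held PU.1 letters too. In windows of 200 bp around the peak centres, STAT letters were found in 5.37% of all untreated peaks and in 9 of the 48 member peaks, PU.1 letters in 20.0% and in 12, CEBP letters in 9.82% and in 10, and AP-1 letters in 8.11% and in 7. None of the 7 letter patterns searched was found in the Fcgr4 peak, which says nothing about the factors themselves. The other patterns were the core letters of IRF and NF-kappaB sites and RUNX (TGTGGTT), found in 3.85%, 1.27% and 5.65% of all untreated peaks and in 2, 1 and 1 member peaks.

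To ask whether engrafted cells and host microglia differed at rest, the untreated peaks were compared first. At the Lilrb4a promoter, engrafted cells were far more accessible, and at most other member peaks no difference was detected. Of the 48 member peaks, 3 were higher in CD45.1 and 1 was higher in CD45.2 at an adjusted p below 0.05 (DESeq2 Wald test with Benjamini-Hochberg adjustment), against 14.9% of all 59034 tested peaks (8.55% higher and 6.33% lower in CD45.1). Under a stricter call, more than 4-fold and an adjusted p below 0.01, 2 member peaks remained, against 6.44% of all peaks. The median log2 fold change was 0.06 over the member peaks and 0.00 over all peaks. CD45.1 and CD45.2 libraries did not overlap at 11 of the 48 member peaks, against 35.4% of all peaks.

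**Figure D1:**
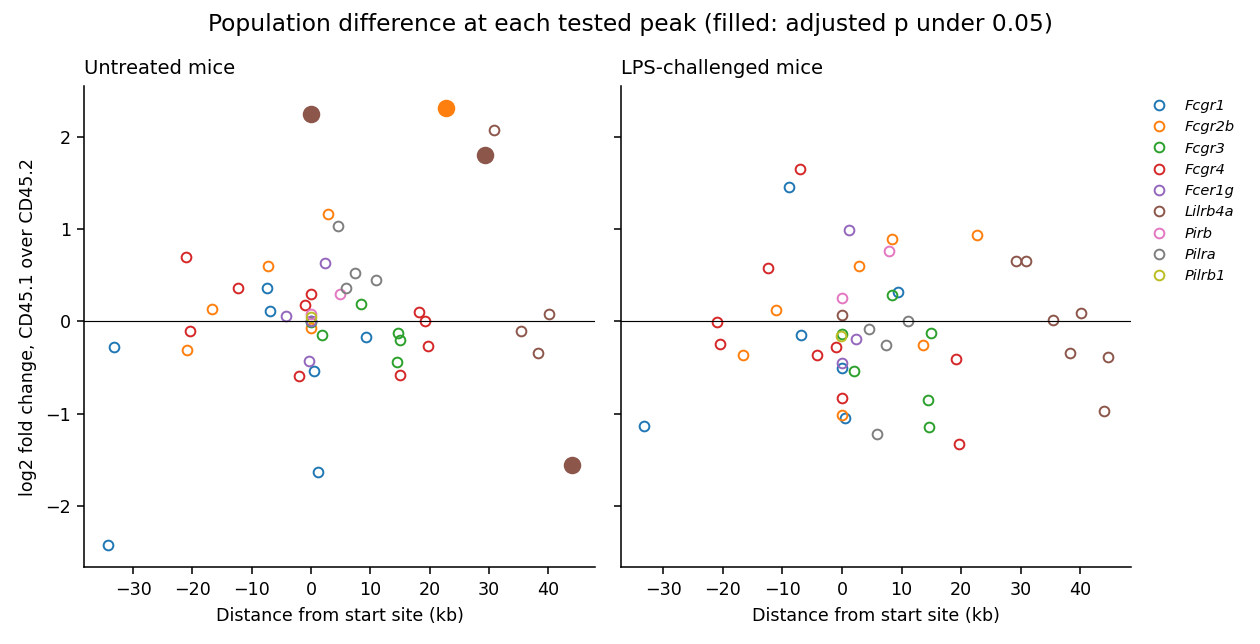
The log2 fold change of CD45.1 (graft) over CD45.2 (host) is plotted against the distance of each tested peak from the start site of its gene in kb, for untreated (left) and LPS-challenged mice (right), with filled points at an adjusted p below 0.05. The 4 filled points are in untreated mice, 3 of them at Lilrb4a and 1 at Fcgr2b, and there is none after LPS.

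Lilrb4a, an inhibitory receptor of myeloid cells, carried 3 of the 4 peaks. Its promoter peak (chr10:51210601-51210728) held 80.2, 87.6 and 87.1 normalized tags in the engrafted cells of mice 4, 5 and 6 and 19.7, 18.6 and 16.2 in host microglia of the same mice. Every engrafted library lay more than 4-fold above every host library, with a log2 fold change of 2.24 ± 0.30 (SE) and an adjusted p of 1.4e-11 (DESeq2). A peak was called at this position in all 3 libraries of both populations. Counting only peaks at or above the median score of their library, it was called in 3 engrafted and 0 host libraries.

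The Lilrb4a peak 29.3 kb downstream of the start site held 13.1, 16.4 and 32.7 tags in engrafted cells and 8.19, 4.64 and 5.68 in host microglia. The groups did not overlap, and the log2 fold change was 1.80 ± 0.58 (SE; adjusted p = 0.017, DESeq2). The call did not hold with the mouse as a block (adjusted p = 0.0983) and it did not hold when CD45.1 of mouse 6 was left out (1.33, adjusted p = 0.254), CD45.2 of mouse 5 (adjusted p = 0.171) or CD45.2 of mouse 6 (adjusted p = 0.116).

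The Lilrb4a peak 44.0 kb downstream was the 1 member peak that passed with a higher level in host microglia. It held 7.46, 7.30 and 7.62 tags in CD45.1 against 26.2, 18.6 and 21.9 in CD45.2, a log2 fold change of -1.56 ± 0.51 (SE; adjusted p = 0.0192, DESeq2). Leaving out any one of the 6 libraries ended the call (adjusted p 0.0547 to 0.116), as did the mouse block (adjusted p = 0.0972) and size factors from total tags (adjusted p = 0.084). Between the peaks at 29.3 and 44.0 kb, those at 35.4, 38.4 and 40.1 kb had log2 fold changes of -0.10, -0.34 and 0.08 and did not pass. The peak at 30.8 kb, in the same stretch, had 2.07 ± 1.00 (SE) and did not pass either (adjusted p = 0.175, DESeq2). It held 5.60, 2.74 and 18.5 tags in CD45.1 and 0.00, 0.77 and 4.87 in CD45.2, and the groups overlapped.

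Fcgr2b, the inhibitory IgG receptor gene, had the other strong difference. Its peak 22.7 kb downstream of the start site, in intergenic DNA past the end of the gene (chr1:172883429-172883567), held 37.3, 37.4 and 47.9 tags in engrafted cells and 6.56, 10.8 and 6.49 in host microglia. All engrafted libraries lay above all host libraries, with a log2 fold change of 2.32 ± 0.44 (SE; adjusted p = 5.03e-06, DESeq2). A peak was called there in 3 of 3 engrafted and 1 of 3 host libraries. The Fcgr2b promoter did not go with it, with 42.9, 59.3 and 55.5 tags in CD45.1 and 55.7, 53.4 and 56.8 in CD45.2 (log2 fold change -0.07 ± 0.26, adjusted p = 0.93).

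The promoters of the activating receptors overlapped between the populations. Fcgr3, the low-affinity activating IgG receptor, held 70.9, 62.1 and 77.3 tags at its promoter in CD45.1 and 72.1, 72.8 and 66.6 in CD45.2 (log2 fold change -0.01 ± 0.23, adjusted p = 0.991). Fcer1g, which encodes the shared signalling chain, held 87.7, 94.9 and 122 tags in engrafted cells and 102, 105 and 96.6 in host microglia (log2 fold change 0.00 ± 0.20, adjusted p = 1.0). The promoters of Fcgr1, the high-affinity IgG receptor, and of Fcgr4 at its start site differed by log2 fold changes of 0.00 ± 0.28 and 0.29 ± 0.41, those of Pirb and Pilrb1 by 0.08 ± 0.31 and 0.05 ± 0.51, and none passed.

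Summed over all peaks of a gene, Pilra was the 1 member of 9 that passed, against 14.8% of all 16166 tested genes. Pilra, an inhibitory receptor for sialylated ligands, held 150, 145 and 188 tags in engrafted cells and 104, 117 and 115 in host microglia (log2 fold change 0.51 ± 0.18, SE; adjusted p = 0.0296, DESeq2). Its 4 intronic peaks all had log2 fold changes above 0, from 0.36 to 1.04, and none passed alone, the peak at 4.59 kb coming nearest (adjusted p = 0.0826, and 0.00823 with edgeR). The call for the sum was lost with the mouse as a block (adjusted p = 0.153), with total tags (adjusted p = 1.0), with only peaks within 10 kb (adjusted p = 0.0596), with only the strongest peak (adjusted p = 0.391) and without any one of the libraries other than CD45.1 of mouse 5 (adjusted p 0.0769 to 0.237). The Lilrb4a sum was 272 ± 12.3 for engrafted cells and 215 ± 15.5 for host microglia (SD, n = 3; log2 fold change 0.35 ± 0.14, adjusted p = 0.0651). This value depended on the peaks summed: with only peaks within 10 kb of the start site it was 2.20 (adjusted p = 5.22e-12), and with only the strongest peak -0.13 (adjusted p = 0.943). The sum over all peaks passed with edgeR (adjusted p = 0.0278).

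**Figure D2:**
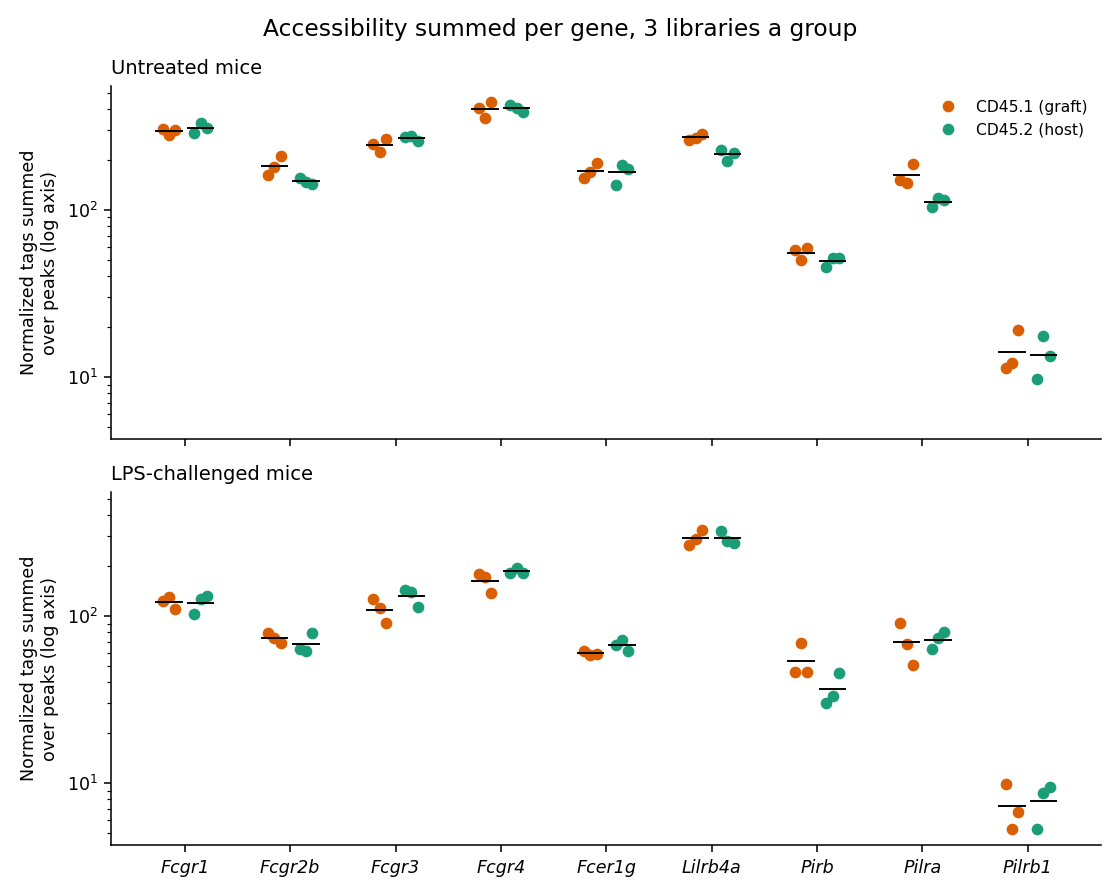
Normalized tags summed over all peaks of each of the 9 genes (log axis) are shown for untreated mice (top) and LPS-challenged mice (bottom), 1 point per library and a line at each group mean. The populations lie close together at most genes. Libraries do not overlap at Pilra, Lilrb4a and Fcgr2b in untreated mice and, by narrow margins, at Fcgr4, Fcer1g and Pirb after LPS. There the nearest CD45.1 and CD45.2 libraries held 178.5 and 179.6 tags at Fcgr4, 61.42 and 61.86 at Fcer1g and 45.86 and 45.8 at Pirb. The share of all genes without overlap was not counted. The panels were normalized separately, so levels are not compared between them.

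After LPS, the question was whether the populations still differed. No member peak passed, of 46 tested, against 6.53% of all 48360 tested peaks (DESeq2). An unadjusted p below 0.05 was reached by 3 of them, and edgeR called 1. No gene sum passed either, of 9, against 7.09% of all genes (no sum had an unadjusted p below 0.05 and edgeR called none). Libraries did not overlap between the populations at 12 of 46 member peaks, against 27.1% of all peaks. LPS libraries were shallower than untreated ones, and the part of depth in this was not tested.

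At the Lilrb4a promoter the difference seen at rest was not detected. The LPS peak (chr10:51210576-51210756) held 40.4, 47.0 and 53.8 tags in the engrafted cells of mice 1, 2 and 3 and 56.1, 47.1 and 35.0 in host microglia. The groups overlapped, with a log2 fold change of 0.07 ± 0.30 (SE; adjusted p = 0.96, DESeq2). At the Lilrb4a peak at 29.3 kb the 3 engrafted libraries still lay above the host ones, with 32.4, 28.7 and 34.0 tags against 15.8, 26.2 and 17.8, but the log2 fold change of 0.65 ± 0.38 did not pass (adjusted p = 0.427).

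The Fcgr2b peak at 22.7 kb held 16.2, 10.4 and 10.4 tags in engrafted cells and 5.26, 5.23 and 8.31 in host microglia after LPS. The groups did not overlap, but the log2 fold change of 0.94 ± 0.61 did not pass (adjusted p = 0.519, DESeq2). The Fcgr2b promoter held 15.4, 15.7 and 5.66 tags in engrafted cells and 35.1, 24.4 and 16.6 in host microglia (log2 fold change -1.01 ± 0.48, adjusted p = 0.269).

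The smallest adjusted p after LPS was at an Fcgr1 peak 8.85 kb upstream of the start site (chr3:96106663-96106823) that had no partner in the untreated table. It held 20.2, 31.3 and 30.2 tags in engrafted cells and 1.75, 7.85 and 16.6 in host microglia, a log2 fold change of 1.45 ± 0.51 (SE; adjusted p = 0.0643, DESeq2). It passed with edgeR (adjusted p = 0.0103) and when CD45.2 of mouse 3 was left out (2.29, adjusted p = 0.0279). A peak was called there in 3 engrafted and 1 host library after LPS and in none of the 6 untreated libraries.

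To compare the response to LPS, peaks of both tables that overlapped reciprocally by at least 50% were paired, which kept 33 member pairs, and 12 libraries were normalized together. The 2 treatments were different mice, and their peaks were called and counted in separate tables with wider peaks after LPS (median 132 bp and 167 bp), so treatment, mouse and table cannot be told apart in the response of either population. The interaction, the difference between the 2 responses, is not shifted by a factor that both populations share. It passed at 1 of the 33 pairs, the Lilrb4a promoter, against 0.242% of all 39209 pairs (DESeq2).

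On the common scale the Lilrb4a promoter held 53.5, 58.8 and 57.3 tags in untreated and 58.6, 70.0 and 79.7 in LPS libraries of engrafted cells. In host microglia it held 13.1, 12.7 and 10.99 tags untreated and 80.7, 68.2 and 51.7 after LPS. The 3 untreated host libraries stood alone at the bottom, and the other 9 libraries ran from 51.7 to 80.7. The response was 0.29 ± 0.24 (log2, SE; adjusted p = 0.403) in engrafted cells and 2.41 ± 0.29 (adjusted p = 5.15e-14) in host microglia. The interaction was -2.12 ± 0.38 (adjusted p = 9.99e-05), and -2.13 (adjusted p = 0.0075) with the mouse as a block.

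**Figure D3:**
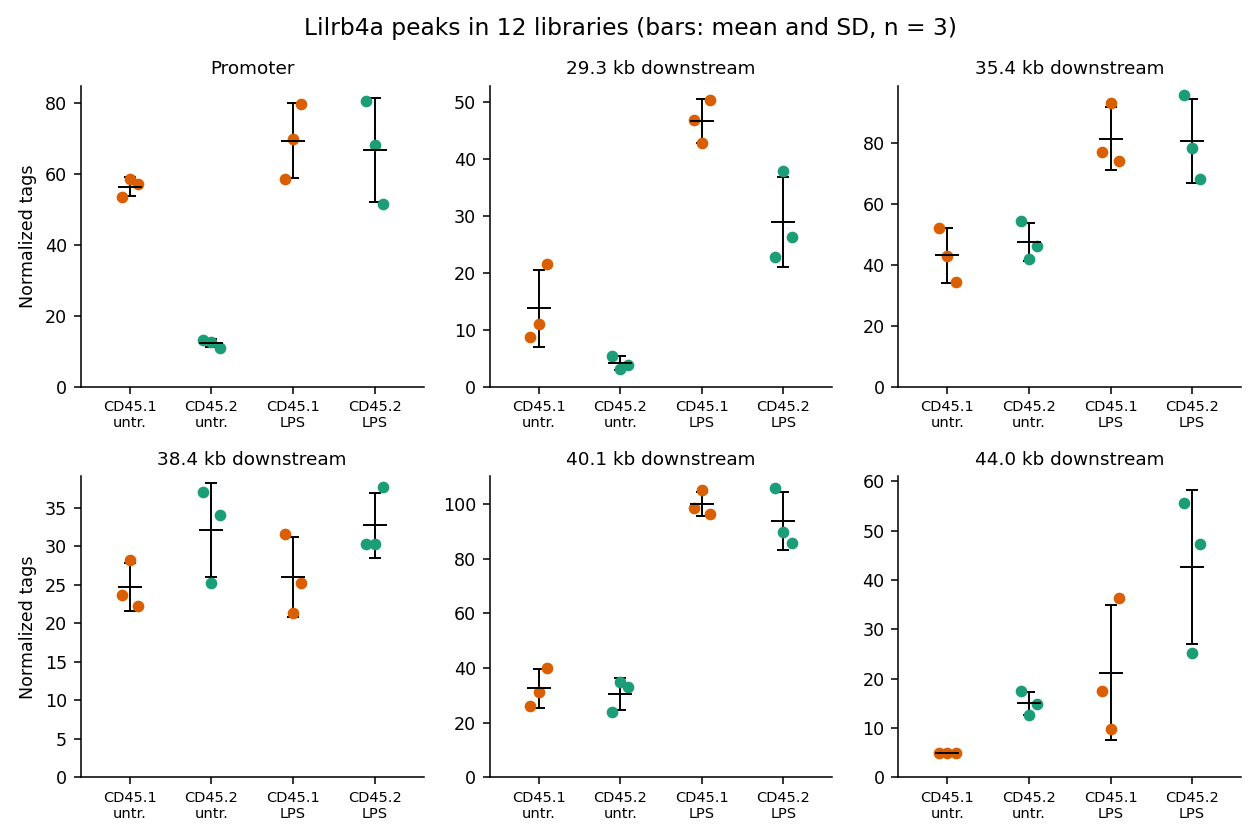
Normalized tags at the 6 matched Lilrb4a peaks in the 12 libraries, with the mean and SD (n = 3) of CD45.1 untreated, CD45.2 untreated, CD45.1 LPS and CD45.2 LPS. At the promoter 3 groups lie between 51.7 and 80.7 tags and untreated host microglia between 10.99 and 13.1, while at 40.1 kb both populations rise after LPS.

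Downstream of the gene, 4 Lilrb4a peaks rose after LPS in both populations. The largest counts were at 40.1 kb, with 26.1, 31.2 and 40.1 tags in untreated and 98.5, 105 and 96.5 in LPS libraries of engrafted cells, and 23.9, 34.8 and 33.0 against 106, 89.7 and 85.8 in host microglia. All LPS libraries lay above all untreated ones, with log2 fold changes of 1.63 ± 0.23 (adjusted p = 1.71e-10) and 1.56 ± 0.23 (adjusted p = 1.82e-09) and an interaction of 0.07 ± 0.33.

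The peak at 29.3 kb rose from 8.71, 11.02 and 21.5 to 46.9, 42.8 and 50.4 tags in engrafted cells and from 5.44, 3.16 and 3.85 to 22.7, 37.9 and 26.3 in host microglia. The log2 fold changes were 1.79 ± 0.36 (adjusted p = 1.98e-05) and 2.91 ± 0.47 (adjusted p = 4.9e-08), and their difference did not pass (interaction -1.12 ± 0.59, adjusted p = 0.928). The peaks at 35.4 and 44.0 kb rose by 0.90 and 2.13 (log2) in engrafted cells and by 0.74 and 1.51 in host microglia. The rise at 35.4 kb in host microglia was lost with size factors from total tags (adjusted p = 0.227), with counts scaled to peak width (adjusted p = 0.0935) and without CD45.2 untreated of mouse 5 or 6 or CD45.2 LPS of mouse 1 or 2, and that in engrafted cells with total tags (adjusted p = 0.0696). The peak at 38.4 kb did not pass in either population.

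Summed over its matched peaks, Lilrb4a was the 1 member of 9 that passed in either response, against 27.6% of all genes in engrafted cells and 15.4% in host microglia. The sums were 179 ± 4.70 untreated and 346 ± 17.7 after LPS in engrafted cells, and 145 ± 8.85 and 346 ± 39.9 in host microglia (SD, n = 3). The log2 fold changes were 0.95 ± 0.13 (adjusted p = 2.25e-11) and 1.24 ± 0.13 (adjusted p = 1.55e-18). With counts scaled to peak width they were 0.69 and 0.98 and still passed. No interaction passed among the 9 gene sums, against 0.191% of all genes (1 had an unadjusted p below 0.05, edgeR called none, and Pilrb1 had no adjusted p).

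A Lilrb4a peak at 44.6 kb had no partner in the untreated table. It held 21.03, 23.5 and 41.5 tags in engrafted cells and 43.8, 29.7 and 40.4 in host microglia after LPS, was called in all 6 LPS libraries and was called in none of the 6 untreated ones. A peak 7.88 kb downstream of the Pirb start, at the end of the gene, was likewise called in 3 engrafted and 2 host libraries after LPS and in none untreated, with 20.2, 44.3 and 22.7 against 7.01, 13.95 and 26.1 tags. Pirb encodes an inhibitory receptor for class I molecules. Its promoter peak was called in all 12 libraries and did not pass in any comparison.

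Every Lilrb4a peak has a similar sequence elsewhere in the genome. A second site with at least 80% identity over at least 50% of the peak was found for all 7 untreated Lilrb4a peaks, and for 12 of the 48 member peaks in all. The downstream peaks lie in repeats according to the deposited annotation, at 29.3 kb in an Lx9 L1 element, at 35.4 and 40.1 kb in LTRIS2 and LTRIS3 endogenous retroviral repeats and at 44.0 kb in L1_Mus3. For the 40.1 kb peak of the LPS table, the closest copy overlapped the Lilrb4a peak at 35.4 kb, at 88.2% identity. The rises of these peaks after LPS may therefore share tags, which was not tested. The Fcgr2b peak at 22.7 kb lies in a HAL1 element and had no such second site. The promoters of Pirb and Pilrb1 had copies at 99.2% and 98.6% identity on their own chromosomes, the latter at the Pilra start. How reads that fit several places were handled is not given in the sources used here, so tags at these sites may be shared with their copies.

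The closest copy of the Lilrb4a promoter is the start of Lilr4b (gp49A) next to it, whose promoter was identical at 101 of 104 aligned bases, 97.1%. This gene was chosen after its values were seen. Its promoter held 34.5, 32.9 and 54.4 tags in untreated engrafted cells and 3.28, 3.10 and 4.06 in untreated host microglia (log2 fold change 3.53 ± 0.56, adjusted p = 3.85e-08), and 37.2, 40.4 and 34.0 against 10.52, 12.2 and 20.2 after LPS (1.30 ± 0.39, adjusted p = 0.0205). Host microglia gained tags there after LPS (3.23 ± 0.55, adjusted p = 1.83e-07), and so did engrafted cells (1.03 ± 0.31, adjusted p = 0.00917), with an interaction of -2.20 ± 0.63 that did not pass (adjusted p = 0.116). With near-identical sequences, tags may be shared between the 2 promoters, so their values cannot be taken as independent. This was not tested.

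**Figure D4:**
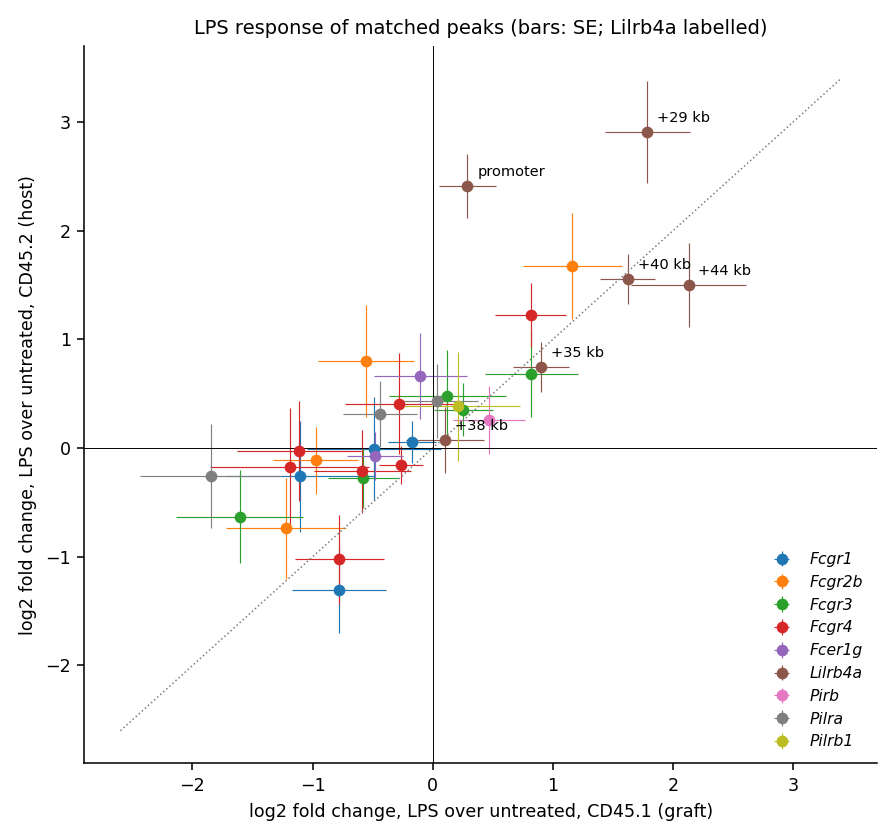
The log2 fold change of LPS over untreated in host microglia (vertical axis) is plotted against that in engrafted cells (horizontal axis) for the 33 matched member peaks, with bars for the SE and the Lilrb4a peaks labelled. The Lilrb4a promoter lies off the diagonal at 0.29 and 2.41, and the Lilrb4a peaks at 35.4, 40.1 and 44.0 kb lie near it.

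Outside Lilrb4a, responses passed at peaks of Fcgr4, Fcgr2b, Fcgr3, Pilra and Fcgr1. Over all 33 pairs, those of Lilrb4a included, 6 rose and 3 fell in engrafted cells, against 12.5% and 7.42% of all pairs, and 7 rose and 1 fell in host microglia, against 11.6% and 5.00%. The member medians were -0.26 and 0.26 (log2), and those of all pairs 0.00 and -0.01.

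Fcgr4, an activating IgG receptor gene, rose 0.949 kb upstream of its start site. The peak held 25.5, 17.2 and 35.8 tags untreated and 48.1, 50.5 and 39.2 after LPS in engrafted cells, and 21.8, 21.6 and 26.4 against 63.1, 58.1 and 46.4 in host microglia. All LPS libraries lay above all untreated ones, with log2 fold changes of 0.82 ± 0.30 (adjusted p = 0.0324) and 1.22 ± 0.29 (adjusted p = 0.000522). The call in engrafted cells was lost with counts scaled to peak width (adjusted p = 0.154), with total tags (adjusted p = 0.19) and without CD45.1 untreated of mouse 4 or 5 or CD45.1 LPS of mouse 1 or 2. That in host microglia was kept under every alternative run. The strongest Fcgr4 peak, 20.5 kb upstream, did not pass in either population (-0.26 and -0.15).

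Within the first intron of Fcgr2b, a peak 2.90 kb from the start site rose from 10.6, 6.74 and 20.1 to 28.1, 31.1 and 23.8 tags in engrafted cells and from 5.44, 4.74 and 6.59 to 22.7, 15.2 and 17.5 in host microglia. The log2 fold changes were 1.16 ± 0.41 (adjusted p = 0.0295) and 1.68 ± 0.48 (adjusted p = 0.00587). The first was lost with counts scaled to peak width (adjusted p = 0.162), with total tags (adjusted p = 0.115) and without any of 5 of the CD45.1 libraries, all but untreated mouse 6, and the second without CD45.2 untreated of mouse 5.

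Peaks that fell numbered 3 in engrafted cells and 1 in host microglia. In engrafted cells, the Fcgr2b promoter fell from 28.6, 39.8 and 36.5 to 22.3, 23.3 and 8.39 tags (log2 fold change -0.97 ± 0.35, adjusted p = 0.0335), and it held 37.0, 36.4 and 38.5 against 50.5, 35.4 and 24.5 in host microglia (-0.11 ± 0.31, adjusted p = 0.852). The interaction of -0.86 ± 0.47 did not pass (adjusted p = 0.95), and the fall was lost without CD45.1 LPS of mouse 3, the library at 8.39, without CD45.1 untreated of mouse 5 or 6 and with total tags (adjusted p = 0.132).

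A Fcgr3 peak at 14.7 kb fell from 18.7, 17.2 and 17.2 to 4.69, 7.77 and 5.595 tags in engrafted cells (log2 fold change -1.61 ± 0.53, adjusted p = 0.0175), and the Pilra peak at 5.86 kb from 12.5, 18.98 and 20.8 to 4.69, 5.83 and 4.20 (-1.85 ± 0.59, adjusted p = 0.013). Both calls were lost with counts scaled to peak width (adjusted p = 0.188 and 0.0697), with total tags (0.0512 and 0.055) and without CD45.1 LPS of mouse 1 or 3, the Fcgr3 call also without CD45.1 untreated of mouse 4. In host microglia neither passed (-0.63 and -0.25). The Fcgr1 peak at 9.33 kb fell in host microglia, from 30.5, 31.1 and 33.0 to 10.1, 15.2 and 12.3 tags (-1.30 ± 0.40, adjusted p = 0.0108), a call lost without CD45.2 untreated of mouse 6 or CD45.2 LPS of mouse 3, and engrafted cells gave -0.78 ± 0.39 (adjusted p = 0.139).

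The strongest peaks of the activating receptors did not pass in either response. The Fcgr1 peak 6.91 kb upstream of the start site held 78.4, 90.0 and 107 tags untreated and 85.6, 85.5 and 72.7 after LPS in engrafted cells, and 84.9, 89.6 and 82.4 against 80.7, 96.0 and 88.4 in host microglia. The Fcer1g promoter gave -0.48 ± 0.23 in engrafted cells and -0.07 ± 0.22 in host microglia, and the Fcgr3 promoter 0.26 ± 0.25 and 0.35 ± 0.24.

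Beyond the receptors, 41 genes that pass on or limit their signals were counted by their summed peaks. In untreated mice 4 were higher in engrafted cells, against 7.35% of all genes, with Cybb, Vav3 and Gab2 at the smallest adjusted p. None was lower by DESeq2 (2 at an unadjusted p below 0.05, 1 by edgeR), against 7.46% of all genes. Cybb, the catalytic subunit of the phagocyte oxidase, held 243 ± 21.7 tags in engrafted cells and 83.9 ± 23.1 in host microglia (SD, n = 3; log2 fold change 1.56 ± 0.19, adjusted p = 3.24e-14). Vav3, an exchange factor for small GTPases, held 362 ± 78.0 and 144 ± 13.98 (1.32 ± 0.16, adjusted p = 5.76e-14), and Gab2, a docking protein, 647 ± 75.1 and 433 ± 50.9 (0.57 ± 0.12, adjusted p = 3.76e-05). The kinase Syk (0.29 ± 0.12), the adaptor Tyrobp (0.03 ± 0.13) and the phosphatases Inpp5d (-0.02 ± 0.09) and Ptpn6 (0.05 ± 0.13) did not pass. After LPS, Vav3 (0.81 ± 0.20, adjusted p = 0.00121) and Cybb (0.72 ± 0.22, adjusted p = 0.0175) were again higher and the kinase gene Fyn was lower (-0.74 ± 0.25, adjusted p = 0.0408), against 4.10% and 2.99% of all genes. The groups overlapped at Fyn, with 71.24, 90.05 and 121 tags in engrafted cells and 174.4, 186.1 and 113 in host microglia.

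In response to LPS, 4 of the 41 rose and 8 fell in engrafted cells, and 7 rose and 1 fell in host microglia, against 15.6% and 11.9%, and 10.4% and 4.98%, of all genes. The kinase genes Tec and Fgr rose in both populations (Tec 0.59 ± 0.13 and 0.66 ± 0.13, Fgr 1.05 ± 0.27 and 1.04 ± 0.26), and Inpp5d, the lipid phosphatase recruited by Fcgr2b, fell in both (-0.67 ± 0.16, adjusted p = 0.000333, and -0.52 ± 0.16, adjusted p = 0.00962). No interaction passed among the 41 by DESeq2, against 0.191% of all genes, or by edgeR, with 1 above and 3 below 0 at an unadjusted p below 0.05.

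Of 46 related receptor genes, 38 were tested in untreated mice, and 6 were higher and 1 was lower in engrafted cells, against 7.35% and 7.46% of all genes. Sirpb1b held 95.6, 64.9 and 117 tags in engrafted cells and 3.24, 0.80 and 3.33 in host microglia (adjusted p = 1.93e-16), and Sirpb1a 109, 92.7 and 87.6 against 0.00, 1.59 and 1.66 (adjusted p = 3.03e-14). Cd200r4 followed with 42.2, 36.1 and 31.7 against 12.96, 3.18 and 3.33 (adjusted p = 2.81e-06). The Sirpb1 genes are close paralogs, so tags may be shared between them. The 1 lower gene, Treml1, held 3.75, 3.71 and 6.34 tags in engrafted cells and 14.6, 24.7 and 15.0 in host microglia (log2 fold change -2.01 ± 0.62, adjusted p = 0.0103). After LPS 3 of 36 were higher, namely Sirpb1b, Sirpb1a and Cd200r4, against 4.10% of all genes, and none was lower by DESeq2 or edgeR (2 at an unadjusted p below 0.05), against 2.99%. In response to LPS, 5 of 35 rose and 5 fell in each population, against 15.6% and 11.9% of all genes in engrafted cells and 10.4% and 4.98% in host microglia.

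Over the 12 libraries, the genes whose summed matched peaks went most alike with Lilrb4a were Gm17746 (Pearson r = 0.986) and Nudt16l1 (r = 0.982), among 12750 other genes. For Fcgr1 they were As3mt (0.978) and Gpr107 (0.974), for Fcgr2b 1700056E22Rik (0.885) and Atf3 (0.883), for Fcgr3 Ticam1 (0.909) and B230219D22Rik (0.866), and for Fcgr4 Nlrx1 (0.954) and Mlf2 (0.917). For Fcer1g they were Usf1 (0.926) and Aph1a (0.916), for Pirb Gcc1 (0.947) and Tubb6 (0.919) and for Pilra Runx1 (0.939) and Abr (0.926). Pilrb1 was below the level needed. These values describe 12 points that share treatment, table and depth.

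An own peak, called in the library itself, was found at 76.4% of the 144 combinations of member peak and library in untreated CD45.1 and 71.5% in untreated CD45.2, and at 58.5% and 57.8% of 147 after LPS. The share over all merged peaks was not counted, and the LPS libraries were also shallower.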

How the data were processed

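ATAC-seq libraries were demultiplexed with bcl2fastq 2.17.1.14 and handled with Bowtie2, Picard 1.108 and HOMER on mm9, per the submitters' processing notes. The authors called peaks per library (HOMER score, tags at the peak), merged the 6 lists of each treatment and deposited unnormalized tags per merged peak as estimated counts in steps of 0.5. No deposited column of values was left unused. Here counts were rounded and tested with DESeq2 1.42.0 in R 4.3.3, the tool the study names (median-of-ratios size factors, CD45.1 over CD45.2). The filter, a count above 10 in at least 1 library, was chosen here and is not given by the study. The fit was tested on simulated data. Peak counts were also summed per gene. Peaks of both tables were matched at 50% reciprocal overlap (39390 pairs) and fitted as population, treatment and interaction over 12 libraries. Both populations came from the same animal, so mouse numbers pair libraries (correlation of deviations 0.0766 to 0.0904 untreated, -0.0662 to 0.152 LPS); the fit with mouse as a block is an alternative.

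The 9 members and the gene lists were chosen with earlier results of these data known. Named were all members, their peaks that passed, lay at a promoter or had the most tags, the 3 list genes of smallest adjusted p in each direction in a population comparison, and the 2 genes most alike each member (log2 of normalized sums + 1, mean of at least 20). Syk, Tyrobp, Inpp5d, Ptpn6, Tec, Fgr and Lilr4b were added after their values were seen. Alternatives were edgeR 4.0.16, total-tag and TMM scaling, no filter, a mean of at least 20, the mouse block, each library left out, any overlap, the strongest peak, peaks within 10 kb, own peaks at or above the median score and, chosen after seeing the data, counts scaled to peak width. SE stands for standard error. Sequences come from the mm9 reference and gene models from GENCODE vM1.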

Additional observations from a re-analysis of the deposited data

Results flagged for a closer look

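The response to LPS of the Lilrb4a promoter peak differed between the populations, with an interaction of -2.12 on the log2 scale (adjusted p = 9.99e-05, DESeq2). In host microglia all 3 LPS libraries lay above all 3 untreated ones, while engrafted cells gave 0.29 ± 0.24. Across the 20 alternatives run the interaction lay between -2.31 and -2.00 with an adjusted p from 6.3e-05 to 0.0208.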

How the results depend on the processing

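In untreated mice, 4 member peaks passed, 6 with edgeR (5 higher in CD45.1, the added ones at Fcgr2b 2.90 kb and Pilra 4.59 kb), 2 with a mean count of at least 20, where 31 were tested and the Lilrb4a peaks at 29.3 and 44.0 kb were filtered out, and 2 with the mouse as a block (replicate block), while leaving out a library gave 2 to 3. After LPS, 0 peaks passed, 1 with edgeR and 0 to 1 with a library left out. For gene sums in untreated mice, the 1 call became 2 with edgeR and 0 with total tags, with the replicate block and with only the strongest peak of each gene, and 0 to 1 with a library left out. For the response in engrafted cells, 9 pairs passed, 3 with total tags, 5 with a mean count of at least 20, 5 with counts scaled to peak width and 5 to 9 with a library left out. Its 1 gene sum became 2 with edgeR and 2 with peaks matched by any overlap, and 1 to 2 with a library left out. The response in host microglia gave 8 pairs and 6 to 8 with a library left out. With peaks at or above the median score, the share of combinations with an own peak was 48.6% and 43.1% untreated and 27.9% and 29.3% after LPS (CD45.1 and CD45.2). No direction of a called member was reversed under any alternative. The causes were not tested.

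The mouse block could not be fitted for the responses to LPS, because each mouse had 1 treatment, and changed no member call other than those given. With 3 libraries a group and 2966364 to 6556594.5 tags per LPS library, small differences were not detectable. Intervals cover counting and replicate error only.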
